A study of Arabidopsis thaliana with 6 samples.

Results

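Chloroplast ribosomal proteins that are encoded in the nucleus formed the gene group described here. A gene was taken where the deposited table places it on a nuclear chromosome and its description holds both a ribosomal protein name and the word chloroplastic, with methyltransferases left out. The rule found 60 of 38192 genes, of which 20 were described as 30S (small subunit) and 39 as 50S (large subunit) proteins. The remaining 1, AT1G68660, encodes ClpS1, an adaptor of the Clp protease, and was taken in by the wording of its description. RNA was sequenced from the shoots (aerial parts) of Arabidopsis thaliana seedlings 9 days old, grown at 23 ± 2 °C with 16 h of light and 8 h of dark. The 3 wild-type libraries (WT) came from Col plants and the 3 others from cpl2-2, a mutant line labelled as a knockout of CPL2. The replicates are called biological by the submitters, and each genotype is 1 line.

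Chloroplasts keep a ribosome of bacterial type, which makes the proteins that the chloroplast genome encodes, among them core subunits of the photosystems and the large subunit of Rubisco. Its RNA and part of its proteins come from the chloroplast genome, while most of its proteins are encoded in the nucleus, made on cytosolic ribosomes and imported. It also holds proteins named plastid-specific ribosomal proteins (PSRPs), most of which bacterial ribosomes lack. In young leaves the assembly of this ribosome is part of the building of the chloroplast.

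The libraries held 18299294 to 21098728 counts. Pearson's r of log2 levels across genes was 0.989 within each genotype and 0.973 to 0.974 between them. CPL2 (AT5G01270), which encodes a phosphatase-like regulator of RNA polymerase II, stood at 19.3, 18.4 and 19.1 CPM (counts scaled to a common library size with TMM factors) in the WT libraries and at 10.6, 10.9 and 10.8 in cpl2-2. Its level was therefore reduced but not lost in the libraries labelled cpl2-2 (log2 fold change -0.82, SE 0.10, adjusted p = 6.0e-09). The sources used here do not give the strand setting of the read counting. If the counting ignored strand, reads of a gene and of one opposite it cannot be told apart. The values of 24 group members with such a neighbour are therefore uncertain.

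Genes for chloroplast ribosomal proteins were mostly lower in cpl2-2, each by a small amount. Of the 53 with enough counts to test, 32 fell, 0 rose and 21 were not called at an adjusted p under 0.05. Over all 19302 genes tested, 13.3% were called lower and 14.1% higher. The median log2 fold change of the 53 was -0.14, a level 9.00% lower, against -0.0017 over all tested genes. Fold changes ran from -0.38 for PSRP1 to 0.35 for AT3G17626, a gene of 3.07 CPM in WT that was not called. The 3 cpl2-2 libraries all lay below the 3 WT libraries for 35 of the 53, which held for 19.2% of all tested genes. At an unadjusted p under 0.05, in either direction, were 36 of the 53 and 7108 of all 19302 tested genes. Among genes at 300 to 1300 CPM, a window chosen after the data were seen, these were 30 of 38 members and 309 of 380 others. In the same window every cpl2-2 library lay below every WT library for 30 of 38 members and 217 of 380 others. In whole shoots, fewer cells of a type and less RNA per cell cannot be told apart.

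**Figure D1:**
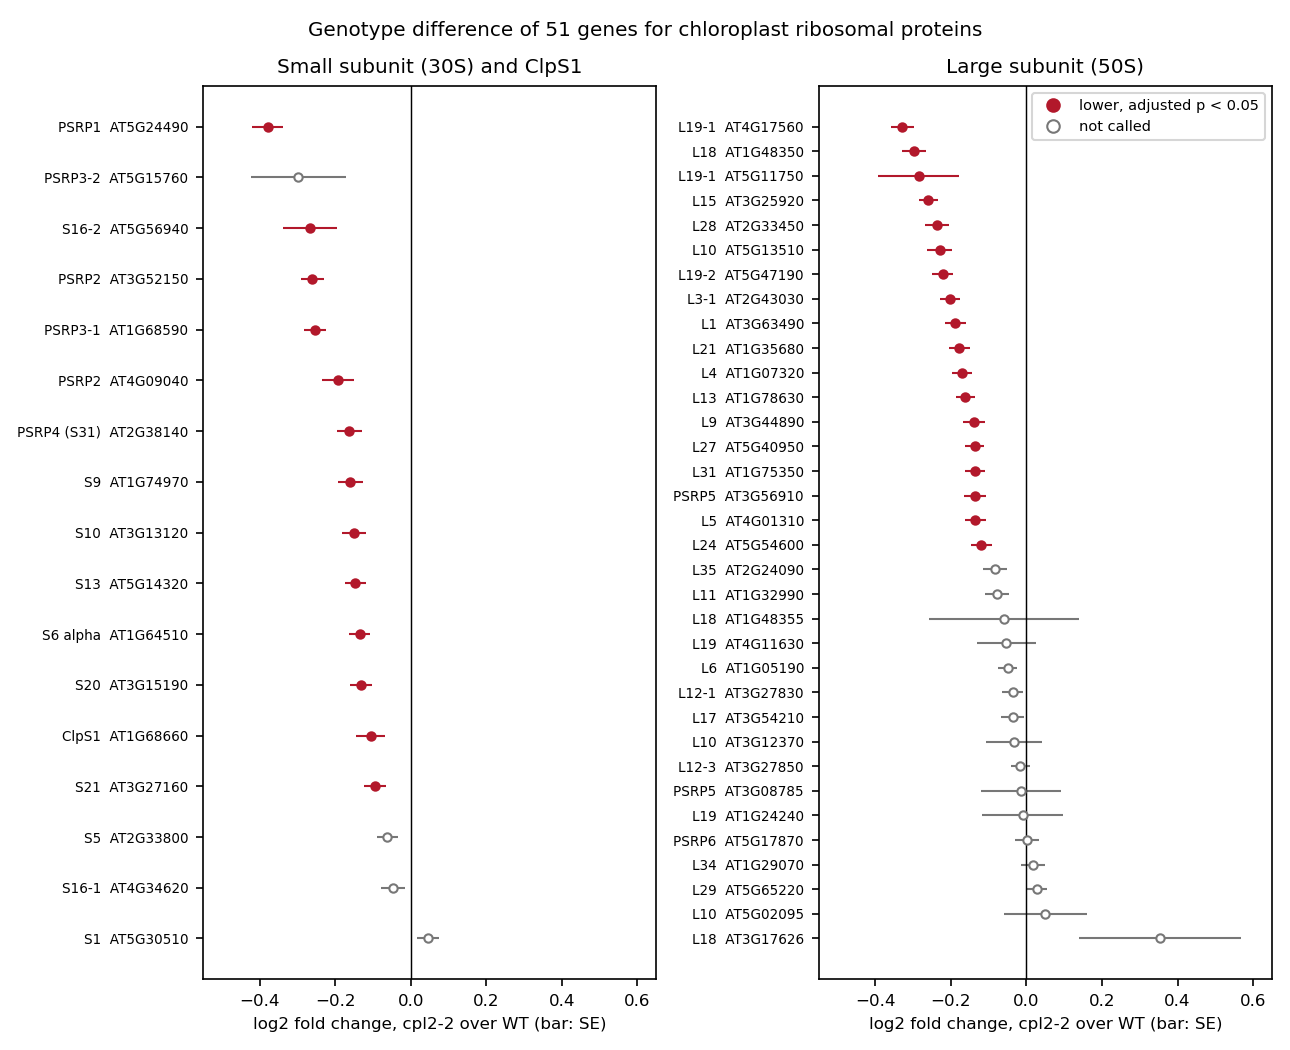
Log2 fold change (cpl2-2 over WT, horizontal axis) with its standard error for 51 of the 53 tested genes, small subunit with ClpS1 on the left and large subunit on the right. Filled red points passed an adjusted p under 0.05; all 31 of them lie below 0, and the wide bars belong to genes of low level.

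Summed over the 60 genes, the share of all counts was 2.63%, 2.63% and 2.65% in the WT libraries and 2.54%, 2.53% and 2.53% in the cpl2-2 libraries, so the genotypes did not overlap. With 3 libraries a group, no test of this single share was made. It is a share of library totals, without TMM factors. With TMM factors the summed level was 27014 ± 256 CPM in WT and 24761 ± 39.5 in cpl2-2 (SD, n = 3). The ratio of large to small subunit transcripts, each per kilobase, was 2.14, 2.18 and 2.16 in WT and 2.16, 2.11 and 2.17 in cpl2-2, and here the genotypes overlapped.

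The sequences upstream of 3 of the genes are shown because they carry the contrasts described below. They belong to PSRP1 and L19-1, the genes with the largest falls, and to S16-1, the most abundant gene of the group per length, which was not called. These 3 were chosen after their values were seen. Each is the 250 bases before the annotated gene start, from the RefSeq genome of assembly TAIR10.1, on the gene's own strand. Capitals mark TGGGC, the core of the site II element, or GATAAG, the core of the I-box, on either strand (GCCCA and CTTATC), elements known from plant promoters of ribosomal protein genes and of light-regulated genes.
PSRP1 (AT5G24490), chr5:8365351-8365600, plus strand: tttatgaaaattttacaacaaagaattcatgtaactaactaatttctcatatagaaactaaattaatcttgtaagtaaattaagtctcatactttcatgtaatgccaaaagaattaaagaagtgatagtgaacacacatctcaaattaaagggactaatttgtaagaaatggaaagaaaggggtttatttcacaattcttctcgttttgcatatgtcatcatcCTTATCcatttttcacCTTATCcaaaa
L19-1 (AT4G17560), chr4:9779974-9780223, plus strand: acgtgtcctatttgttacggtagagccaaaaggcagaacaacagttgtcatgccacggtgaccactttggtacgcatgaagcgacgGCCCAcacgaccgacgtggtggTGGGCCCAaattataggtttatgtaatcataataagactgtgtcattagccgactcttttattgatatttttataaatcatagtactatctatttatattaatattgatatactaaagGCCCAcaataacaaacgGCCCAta
S16-1 (AT4G34620), chr4:16536225-16536474, minus strand: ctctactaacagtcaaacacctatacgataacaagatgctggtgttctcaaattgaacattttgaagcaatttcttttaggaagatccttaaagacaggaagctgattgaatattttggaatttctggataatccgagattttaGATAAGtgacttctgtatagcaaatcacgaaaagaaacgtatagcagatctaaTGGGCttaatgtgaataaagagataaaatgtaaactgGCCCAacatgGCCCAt
L19-1 held 5 site II cores, of which 1 pair overlaps, S16-1 held 3 with 1 I-box core, and PSRP1 held 2 I-box cores.

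Across the whole group, motifs were searched on both strands from 250 bases before to 50 bases after the gene start. TGGGC was found in 46.7% of the 60 promoters and in 23.9% of 37997 promoters of protein-coding nuclear genes. GATAAG was found in 36.7% of the group and in 15.1% of all promoters. The telo-box AAACCCTA, known from genes for cytosolic ribosomal proteins, was in 13.3% of the group, 6.18% of all promoters and 45.0% of those of 222 tested 40S and 60S genes. For CACGTG, the G-box, the shares were 6.67% of the group and 6.46% of all promoters. Promoters of the 222 tested 40S and 60S genes held TGGGC in 77.0%, GATAAG in 16.7% and CACGTG in 4.5%, so TGGGC was more frequent there than in the group. Over tested genes alone, TGGGC was in 47.2% of 53 members and 30.3% of 19245 promoters, GATAAG in 21 of the 53 and 2889 of the 19245, and AAACCCTA in 13.2% and 5.71%. The G-box was then in 7.55% of members and 8.69% of promoters, so its order turned. Among tested group members, TGGGC was in 16 of the 32 that fell and 9 of the 21 not called, and GATAAG in 13 and 8 of them. These shares describe letters in a window and were not tested.

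Of the small subunit genes, 13 of 18 tested fell and 0 rose, with a median log2 fold change of -0.15. The genes for S9 (RPS9), S10 (AT3G13120) and S13 (EMB3137), had changes near that median. S13, which in bacteria contacts transfer RNA and the large subunit, had 776, 792 and 822 CPM in WT and 709, 718 and 733 in cpl2-2. The groups did not overlap (log2 fold change -0.15, SE 0.027, adjusted p = 3.1e-05). S9 went from 375 ± 17.2 CPM in WT to 336 ± 3.01 in the mutant (SD, n = 3; -0.16) and S10 from 556 ± 8.44 to 501 ± 30.1 CPM (-0.15). S6 alpha (AT1G64510) and S20 (PRPS20) fell by 0.14 and 0.13 on the log2 scale, and S21 (GHS1) by 0.096. The call of S21 (adjusted p = 0.010) was lost without cpl2-2 replicate 1 (0.051). Small subunit genes not called included S1, S5, S16-1 and PSRP3/2.

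Plastid-specific proteins were among the largest falls. Of 9 loci described as PSRPs, 6 fell and 3 were not called. PSRP1 (AT5G24490, chromosome 5, 8365601 to 8367460) is described as a factor, and its spinach counterpart binds and inactivates the ribosome. It had 173, 181 and 189 CPM in WT and 136, 135 and 147 in cpl2-2. Every cpl2-2 library was below every WT library, and the level was 23.1% lower (log2 fold change -0.38, SE 0.040, adjusted p = 1.3e-10), the largest fall of the group. PSRP2 (AT3G52150), an RNA-binding protein of the small subunit, had 447, 453 and 462 CPM in WT and 368, 385 and 382 in cpl2-2, again without overlap (-0.26, SE 0.030, adjusted p = 1.1e-09). A second locus described as PSRP2, AT4G09040, fell from 122 ± 1.0 to 107 ± 2.77 CPM (SD, n = 3; -0.19).

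PSRP3/1 (AT1G68590) had 595, 572 and 606 CPM in WT and 502, 487 and 499 in cpl2-2, with all mutant libraries below all WT libraries (log2 fold change -0.25, SE 0.029, adjusted p = 8.4e-10). Its paralogue PSRP3/2 (AT5G15760) was far less abundant, at 10.6, 9.41 and 11.5 CPM in WT and 8.64, 8.87 and 8.15 in cpl2-2. Its log2 fold change was -0.30 with an SE of 0.13, which did not pass (adjusted p = 0.075), although the groups did not overlap; without WT replicate 2 it passed (-0.37, adjusted p = 0.044). PSRP4 (AT2G38140, also named S31) fell from 333 ± 9.92 to 297 ± 8.48 CPM (SD, n = 3; -0.16) and PSRP5 (AT3G56910), of the large subunit, from 607 ± 13.3 to 552 ± 26.5 CPM (-0.14). PSRP6 (AT5G17870) had a log2 fold change of 0.0015 (SE 0.032, adjusted p = 0.98). It stood at 470, 468 and 484 CPM in WT and 466, 504 and 453 in cpl2-2, so the highest and the lowest library were both mutant ones.

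Of the large subunit genes, 18 of 34 tested fell and 0 rose, with a median log2 fold change of -0.13. Whether the subunits differ was not tested. L19-1 (AT4G17560, chromosome 4, 9780224 to 9782183), which in bacteria sits where the subunits meet, had 513, 536 and 509 CPM in WT and 421, 409 and 411 in cpl2-2. The gap between the groups was wider than the spread within either one (log2 fold change -0.33, SE 0.030, adjusted p = 1.0e-12). L18 (EMB3105, AT1G48350), a binder of the small ribosomal RNA of the large subunit, had 590, 592 and 638 CPM in WT and 506, 501 and 474 in cpl2-2, also without overlap (-0.30, SE 0.031, adjusted p = 7.1e-11). L15 (RPL15, AT3G25920), a late assembly protein in bacteria, had 1221, 1236 and 1238 CPM in WT and 1022, 1051 and 1014 in cpl2-2. The WT libraries lay close together and well above the mutant ones (-0.26, SE 0.025, adjusted p = 4.7e-12).

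L28 (PRPL28), L10 (EMB3136), which anchors the stalk of the large subunit, and L3-1 (AT2G43030), a protein of early assembly in bacteria, fell by 0.24, 0.23 and 0.20 on the log2 scale. L1 (EMB3126) fell by 0.19, L21 (RPL21C) by 0.18, L4 (RPL4) by 0.17 and L13 (emb1473) by 0.16. The falls of L9, L27, L31 (emb2184), L5 (AT4G01310) and L24 (RPL24) were all of 0.12 to 0.14. ClpS1 (AT1G68660), which is no ribosomal protein, fell from 153 ± 4.15 to 142 ± 4.53 CPM (SD, n = 3; -0.11, SE 0.039, adjusted p = 0.037). Its call was lost with DESeq2 (adjusted p = 0.056), with library totals (0.51) and without any 1 of 4 libraries: WT replicate 1 (0.17), WT replicate 2 (0.063), cpl2-2 replicate 1 (0.064) or cpl2-2 replicate 3 (0.17).

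Some abundant genes were not called. Above 60 CPM, a limit set after the values were seen, the group held 42 genes, of which 30 fell and 12 were not called. L12-1 (RPL12-A) and L12-3 (RPL12-C), copies for the stalk protein that recruits translation factors, were at -0.037 (SE 0.029, adjusted p = 0.37) and -0.016 (SE 0.025, adjusted p = 0.70). RPL12-C had 949, 958 and 970 CPM in WT and 957, 929 and 959 in cpl2-2, with overlap. L29 (AT5G65220) had 1104, 1040 and 1094 CPM in WT and 1090, 1138 and 1074 in cpl2-2, also overlapping (0.028, SE 0.027, adjusted p = 0.49).

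S1 (RPS1), which binds messenger RNA at initiation in bacteria, had 695, 688 and 668 CPM in WT and 714, 723 and 680 in cpl2-2. The highest 2 libraries were mutant ones, but the third lay inside the WT range (0.046, SE 0.028, adjusted p = 0.24). L34 (AT1G29070) was at 0.017, L17 (AT3G54210) at -0.037, L6 (emb2394) at -0.049 and S5 (EMB3113) at -0.062, none of them called. L35 (PRPL35; -0.083, adjusted p = 0.052) and L11 (PRPL11; -0.078, adjusted p = 0.052) lay next to the threshold. Without WT replicate 1, cpl2-2 replicate 1 or cpl2-2 replicate 3, L35 passed it (adjusted p = 0.030, 0.031 and 0.021). Both passed with limma-voom (0.035 for L35 and 0.039 for L11) and with no filter on low counts (0.017 and 0.043).

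S16-1 (SSR16) showed the widest spread among the abundant genes, at 1398, 1299 and 1334 CPM in WT and 1280, 1408 and 1213 in cpl2-2. Replicate 2 of cpl2-2 was the highest of all 6 libraries and the other mutant libraries were the lowest. The log2 fold change was -0.047 (SE 0.031, adjusted p = 0.28), and without cpl2-2 replicate 2 it was -0.11 with a call (adjusted p = 0.00067). That library was the highest of the 3 mutant ones in 16 of the 42 genes. Over these 42 genes, its deviation from the other mutant libraries had a Pearson's r of -0.32 and a Spearman's rho of -0.31 with transcript length. This is a description across genes that share the libraries, looked at after the values were seen. The part of length in these values was not tested. Without that library 33 members of the group fell and 0 rose.

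Per length, the 42 genes spanned 23.2-fold in WT, from 82.2 CPM per kb for AT4G09040 to 1912 for S16-1, with a median of 578. The 5 highest were S16-1, L29 (1295 CPM per kb in WT), L15 (1077), L27 (RPL27; 1029) and L12-3 (1000). In cpl2-2 the same 5 stood at 1850, 1319, 899, 936 and 989 CPM per kb. L15 and L27 fell, by 0.26 and 0.14 on the log2 scale (adjusted p = 4.7e-12 and 2.5e-05), so L12-3 stood above both in cpl2-2. Across the 42 genes the log2 fold change had an r of 0.30 and a rho of 0.19 with the WT level per kb.

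**Figure D2:**
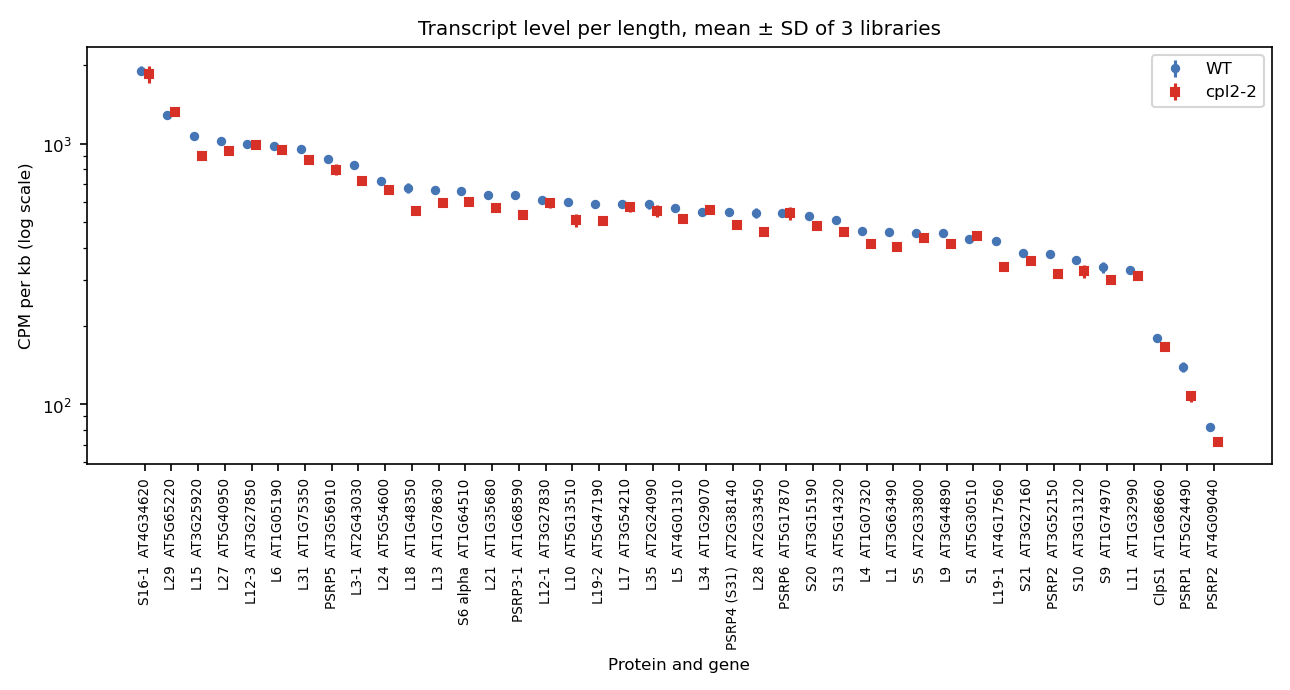
Transcript level per kilobase (CPM per kb, log scale) of 41 of the 42 members above 60 CPM in WT (circles) and cpl2-2 (squares), mean ± SD of 3 libraries, in the order of the WT level. S16-1 stands highest at 1912 CPM per kb in WT, and ClpS1, PSRP1 and AT4G09040 stand lowest.

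Several proteins have more than 1 locus, and most of their reads came from 1 or a pair of them. Of the 5 loci described as L19, L19-2 (AT5G47190) and L19-1 stood at 589 and 423 CPM per kb in WT and the other 3 at 11.6 to 27.4. L19-2 had 610, 593 and 580 CPM in WT and 512, 518 and 498 in cpl2-2, without overlap (log2 fold change -0.22, SE 0.029, adjusted p = 2.2e-08). L19-1 was at -0.33, and the difference between the copies was not tested. AT5G11750, which the table describes by the entry of L19-1, had 18.7, 17.0 and 15.8 CPM in WT and 14.3, 16.3 and 11.7 in cpl2-2, and here the groups overlapped. Its call (-0.29, SE 0.11, adjusted p = 0.042) was lost with DESeq2 (0.094), with library totals (0.13) and without WT replicate 1 (0.20), WT replicate 2 (0.078), cpl2-2 replicate 1 (0.070) or cpl2-2 replicate 3 (0.30). AT4G11630 and AT1G24240 were at -0.053 and -0.010 and were not called.

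S16-2 (AT5G56940), described as a protein of both chloroplasts and mitochondria, had 33.5, 36.3 and 36.8 CPM in WT and 31.7, 29.2 and 27.7 in cpl2-2, so the groups did not overlap (log2 fold change -0.27, SE 0.072, adjusted p = 0.0035). Per kb it stood at 47.3 in WT, against 1912 for S16-1. A second L10 locus, AT3G12370, had 31.6 ± 1.33 CPM in WT and 30.9 ± 2.59 in cpl2-2 (SD, n = 3; adjusted p = 0.79). Near-identical copies could share reads, so values of such copies are uncertain.

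In 3 pairs of members on opposite strands, the shorter locus had a low level and the gene across from it was abundant. AT3G08785, opposite PSRP5, AT5G02095, opposite EMB3136, and AT1G48355, opposite EMB3105, stood at 17.9, 13.2 and 4.26 CPM in WT. None of these 3 was called, and their descriptions repeat the protein of the gene across from them. Among the 35 members that overlap no annotated gene, a split made after the data were seen, 16 of 30 tested fell and 0 rose, with a median of -0.12.

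The test left out 7 members. RPL12-B (AT3G27840), AT1G04455, AT1G04457, AT5G51610, AT3G33002 and AT4G08695 had 0 counts in all 6 libraries. AT2G00550, described as S21, had 3, 5 and 2 counts in WT and 1, 3 and 13 in cpl2-2. RPL12-B lies between RPL12-A and RPL12-C on chromosome 3, and of the 3 copies it alone had no count.

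Calls were also set beside those of other genes of like level. Among 380 other genes at 300 to 1300 CPM, 54.2% were called lower and 22.1% higher, with a median log2 fold change of -0.10. In that window, chosen after the data were seen, 27 of 38 group members fell and 0 rose, with a median of -0.14. Of 11 tested members under 60 CPM, 2 fell, S16-2 and AT5G11750. No member was lower by as much as 2-fold.

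The number of calls also depended on scaling. When libraries were scaled by their totals alone, the median of all tested genes moved from -0.0017 to 0.066 and that of the group from -0.14 to -0.068, a distance of 0.13 under both. Then 22 members fell and 3 rose, where 8.63% of all genes were called lower and 20.5% higher. The 3 were S1 (0.11, adjusted p = 0.0012), L29 (0.096, adjusted p = 0.0033) and L34 (0.085, adjusted p = 0.029). The falls no longer called included those of S6 alpha, S20, S21, L5, L9, L24, PSRP5, ClpS1 and AT5G11750. There were 22 members called lower in each of 13 settings, PSRP1, L19-1, L18, L19-2, L15, PSRP2 and PSRP3/1 among them.

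Genes of the cytosolic ribosome were mostly lower as well. The planned class was all nuclear ribosomal protein genes described with neither chloroplast nor mitochondrion. Of 300 tested there, 196 fell and 14 rose, with a median of -0.20. Of 222 tested genes for 40S and 60S proteins of the cytosolic ribosome, a class set after the data were seen, 175 fell and 9 rose, with a median of -0.21. Among the other 78 of the planned class, 21 fell and 5 rose, with a median of -0.097. For proteins of the mitochondrial ribosome, at a median level of only 26.8 CPM, 7 of 29 tested fell, 0 rose and 22 were not called, with a median of -0.12. The chloroplast genome's own ribosomal protein genes held few reads. Of 26, 10 were tested and 2 fell, L32 (ATCG01020; -0.24, SE 0.066, adjusted p = 0.0043) and ATCG00800, described as a structural part of the ribosome (-0.82, SE 0.26, adjusted p = 0.013). Among those 10 chloroplast-encoded genes 0 rose and 8 were not called. All 10 fold changes were negative, with a median of -0.34, a median SE of 0.31 and a median level of only 1.83 CPM. Summed over the 26, the level was 58.6 to 60.9 CPM in WT and 48.0 to 49.9 in cpl2-2. L32 held most of it, with means of 39.5 and 33.4 CPM. Differences between these classes were not tested.

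**Figure D3:**
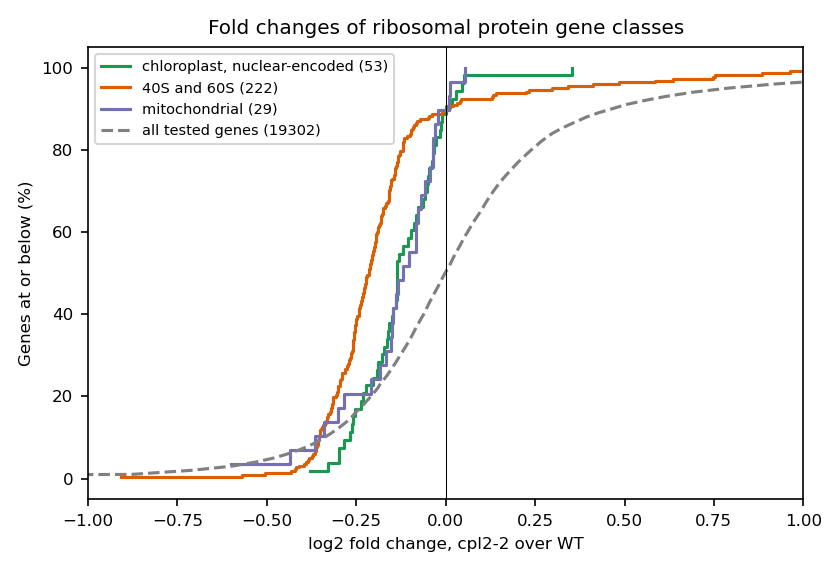
Cumulative share of genes (vertical axis, percent) at or below each log2 fold change for 53 nuclear genes of the chloroplast ribosome, 222 genes of 40S and 60S proteins, 29 of the mitochondrial ribosome and all 19302 tested genes (dashed). The medians are -0.14, -0.21, -0.12 and -0.0017, and values beyond 1 in either direction lie outside the plot.

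Genes that assemble the chloroplast ribosome were also mostly lower. Of 17 listed assembly factors, 15 fell and 0 rose, with a median log2 fold change of -0.25. AT4G34730, related to the bacterial ribosome-binding factor A, fell from 88.2 ± 1.88 to 67.3 ± 2.33 CPM (SD, n = 3; -0.39, adjusted p = 1.7e-08). AT5G66470, an Era-type GTPase, fell by 0.37, the helicase gene AT3G06980 by 0.30 and the ribonuclease III-like AT4G37510 by 0.23 on the log2 scale. A further listed locus, AT2G33430, was not analysed here.

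Of 13 translation factors of the chloroplast, 7 fell and 0 rose, with a median of -0.11. RRF (AT3G63190), the ribosome recycling factor, had 243, 232 and 232 CPM in WT and 177, 171 and 179 in cpl2-2, a wide gap (log2 fold change -0.43, SE 0.035, adjusted p = 6.1e-14). The initiation factor 3 gene AT2G24060 fell by 0.32, the elongation factor P gene AT3G08740 by 0.25 and emb2726, for elongation factor Ts, by 0.13. RABE1b, the abundant elongation factor Tu, was at 0.038 (adjusted p = 0.22).

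Of 24 tested genes in the list of organellar aminoacyl-tRNA synthetases, 14 fell and 0 rose. OVA4, for tryptophan, fell by 0.54 and ERS, for glutamate, by 0.35 on the log2 scale. The wording of the search had also taken in 4 thylakoid curvature genes, of which AT4G38100 (-0.52) and AT1G52220 (-0.45) fell most, and without these 4, 11 of 20 fell. Of 3 regulators of chloroplast genes, GLK2 rose from 34.3 ± 2.43 to 45.8 ± 2.94 CPM (SD, n = 3; 0.42, adjusted p = 2.9e-06), opposite in sign to the ribosomal protein genes that fell. GLK1 (GPRI1), at 0.11 (adjusted p = 0.033), lost its call with DESeq2 (0.077) and without WT replicate 1 (0.33), WT replicate 2 (0.081), cpl2-2 replicate 1 (0.22) or cpl2-2 replicate 3 (0.051). GUN1, for a chloroplast signalling protein, was not called (0.012, adjusted p = 0.83).

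Markers of cell types were read beside these values. Markers of dividing cells summed to 110 to 112 CPM in WT and 93.7 to 96.6 in cpl2-2, and 2 of 7, SYP111 and HIK, were called lower. Of these sums SYP111 alone held 44.3 CPM in WT and 38.2 in cpl2-2 (means). The fold changes of 6 of the 7 were negative, and AUR1 was at 0.041 and not called. Of 6 green shoot markers, genes for Rubisco and light-harvesting proteins, 5 fell and LHB1B1 rose, and their summed level was 45520 to 47124 CPM in WT and 34760 to 37007 in cpl2-2. Most of this sum came from the Rubisco genes RBCS1A and RBCS3B, with means of 28327 and 14115 CPM in WT. Root markers summed to 307 to 321 CPM in WT and 300.01 to 325 in cpl2-2, nearly all of it from PYK10. Among the 6, EXPA7 had no count in any library, and CASP1, at 0.54 CPM in WT, was called higher (1.25, adjusted p = 0.022). The part of cell composition in the falls of the ribosomal protein genes was not tested.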

How the data were processed

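RNA was sequenced from 3 WT and 3 cpl2-2 libraries. The authors deposited raw read counts per gene, whole numbers with no normalization, as read from the deposited values. Reads were aligned with HISAT2 2.0.5 to TAIR10, per the submitters' processing notes, and libraries were made with a directional kit, per the labels' protocols. The counting program and its strand setting: not given in the sources used here.

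Groups and replicate numbers come from the labels. Counts were tested with edgeR 4.0.16 (R 4.3.3): TMM factors, filterByExpr, quasi-likelihood F test with genotype as the only term and Benjamini-Hochberg adjustment over all 19302 genes tested, called at an adjusted p under 0.05. Adjusted p-values are from this fit unless another is named, and SEs are the absolute log2 fold change over the square root of F. The procedure was checked on simulated counts. Levels are TMM-scaled CPM, per kb of the deposited gene length where genes are compared, and correlations of libraries used a prior count of 2. At 18299294 to 21098728 counts a library, counting error is small above 60 CPM and larger below it.

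Members and lists were chosen with earlier results of these data known. Members named are the 8 largest called falls, and rises had there been any, with a mean of at least 1 CPM, the 5 highest per length, loci of the same protein, PSRPs, untested members and CPL2, with up to 4 called genes of smallest p per related list; all other members named were added after values were seen. Alternatives were DESeq2 1.42.0, limma-voom (limma 3.58.1), library totals, DESeq2 size factors, no filter, a replicate block and each library left out. Replicate numbers are not stated to pair samples. Symbols came from the RefSeq gene table of TAIR10.1, in which 37570 of 38192 identifiers and all 60 members matched. Promoters were read from that genome because no promoter table was given, a departure from the plan; all 60 members have the same start and end there as in the deposited table. A few items, some of them sequences, are not reported here.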

Additional observations from a re-analysis of the deposited data

How the results depend on the processing

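The 32 called falls of the group kept their direction in all 13 settings. Leaving out 1 library at a time gave 30 to 33 members lower, 0 higher and a median of -0.15 to -0.13, with 12 to 14 small and 17 to 18 large subunit genes lower; over all genes, 2177 to 2358 were lower and 2347 to 2474 higher. Library totals moved most: 1666 of all genes were lower, the median of members was -0.068, and 3 members (1 small and 2 large subunit), 2 translation factors and 1 synthetase were called higher, while 4 genes of the mitochondrial ribosome were called lower, against 7. Called higher were 1 regulator with DESeq2 and 1 to 2 with a library left out, and 0 to 1 synthetase with a library left out. The 40S and 60S class held 9 rises against 14 among all other nuclear ribosomal protein genes, and 16 members that overlap no gene fell. Sign changes affected only values that were not called in the fit reported. With library totals these included 0.021 for SSR16, 0.052 for RPL12-C, 0.031 for RPL12-A, 0.0061 for EMB3113, 0.019 for emb2394, 0.031 for AT3G54210, 0.0098 for AT1G48355, 0.015 for AT4G11630, 0.036 for AT3G12370, 0.054 for AT3G08785 and 0.058 for AT1G24240, and PSRP6 was -0.0038 with no filter. With a library left out, the ranges included -0.0013 to 0.044 for AT5G65220, -0.15 to 0.076 for AT1G48355, -0.10 to 0.018 for AT3G12370, -0.17 to 0.093 for AT3G08785, -0.038 to 0.016 for AT1G24240, -0.088 to 0.13 for AT5G02095, -0.046 to 0.033 for PSRP6, -0.0078 to 0.043 for AT1G29070 and -0.017 to 0.040 for GUN1. Same-numbered samples had deviation correlations of -0.012, 0.010 and 0.013 over 19302 genes. These values show no shared deviation by number, but cannot tell whether samples were grown or prepared in pairs. The replicate block gave 33 members lower, with L35 added. The cause of these shifts was not tested. The 11 tested members under 60 CPM had a median SE of 0.11, against 0.03 over the group. Their median log2 fold change was -0.032, against -0.14 for the 42 above 60 CPM. The part of depth in their few calls was not tested.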
